A study of Mus musculus with 4 samples.

Results

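The transcripts of 10 mTOR complex components were followed in reconstituted ovaries (rOvaries) of mice that did or did not receive INK128. The members were taken by gene symbol from the count table, where all 10 were found among 54021 symbols. They are the kinase Mtor, its partners in both complexes (Mlst8, Deptor), the assembly factor Telo2, the mTORC1 components Rptor and Akt1s1, and the mTORC2 components Rictor, Mapkap1, Prr5 and Prr5l. In 9 of the 10 the mean over libraries exceeded 10 CPM (counts scaled to library size), the level above which 11758 genes were tested. Prr5l did not reach it, and its test came from a fit to the 17631 genes above 1 CPM on average.

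The rOvaries were grafts that formed from fetal primordial germ cells (PGCs) and gonadal somatic cells of actin-GFP C57BL/6 mice, placed under the kidney capsule of bilaterally ovariectomized recipients. Recipients of both groups were second-generation (G2) Terc-/- females on a C57BL/6 background, 10 weeks old on average, so the lack of the telomerase RNA component was shared by treated and control animals. INK128 was given in the drinking water and controls did not receive it. Its dose is stated as 0.75 μM per g of body weight in the labels and as 30 μM in the water in the methods. Whether controls drank the vehicle, and whether a library came from 1 graft or several, is not given in the sources used here. RNA was taken 4 weeks after transplantation, with 2 INK128 libraries (replicates 1 and 2) and 2 control libraries (replicates 1 and 3). Nothing states that the replicates came from separate animals, so p-values measure only the spread between these samples.

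mTOR is a serine/threonine kinase that works in a pair of complexes. In mTORC1 it is joined by Raptor (Rptor), which recruits substrates such as the S6 kinases and the 4E-BP translation repressors, and by the inhibitory subunit PRAS40 (Akt1s1). In mTORC2 it is joined by Rictor and mSin1 (Mapkap1), with Protor proteins (Prr5, Prr5l) bound to Rictor, and phosphorylates Akt, SGK and protein kinase C family members. mLST8 sits on the kinase domain in both, DEPTOR inhibits both, and Tel2 (Telo2) acts with Hsp90 to fold and assemble mTOR and its relatives. In the ovary, mTORC1 activity in oocytes and pregranulosa cells is known to promote the activation of primordial follicles. INK128 competes with ATP at the kinase site and so acts on both complexes. Read counts measure transcripts and not kinase activity.

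The promoters of the kinase and of the scaffold that defines each complex are shown, since these were the transcripts on which the comparison between complexes rests. Each is the 250 bases before the RefSeq start on GRCm38.p6, 5′ to 3′ on the gene's strand, with CCAAT and GGGCGG in capitals in either orientation (ATTGG and CCGCCC on the other strand).
Mtor, chr4:148448332-148448581, plus strand: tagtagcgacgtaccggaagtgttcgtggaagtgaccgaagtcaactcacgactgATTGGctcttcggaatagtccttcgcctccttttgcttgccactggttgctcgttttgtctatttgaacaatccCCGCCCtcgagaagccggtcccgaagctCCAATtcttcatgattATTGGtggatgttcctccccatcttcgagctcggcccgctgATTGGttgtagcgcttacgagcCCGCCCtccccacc
Rptor, chr11:119602655-119602904, plus strand: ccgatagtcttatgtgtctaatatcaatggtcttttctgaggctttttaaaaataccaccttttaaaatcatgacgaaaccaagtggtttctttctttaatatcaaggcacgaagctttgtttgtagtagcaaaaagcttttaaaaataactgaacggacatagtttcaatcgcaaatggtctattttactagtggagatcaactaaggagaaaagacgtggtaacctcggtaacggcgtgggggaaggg
Rictor, chr15:6708131-6708380, plus strand: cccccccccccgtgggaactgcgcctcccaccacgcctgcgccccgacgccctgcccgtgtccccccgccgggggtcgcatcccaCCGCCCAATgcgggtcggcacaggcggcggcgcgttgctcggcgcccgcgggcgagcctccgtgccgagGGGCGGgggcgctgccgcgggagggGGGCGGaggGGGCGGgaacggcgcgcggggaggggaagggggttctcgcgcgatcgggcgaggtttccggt

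The Mtor window held 4 CCAAT boxes and 2 GC boxes (the name of the GGGCGG motif), and 54.4% of its bases were G or C. The Rictor window was far richer in G and C at 81.2%, with 1 CCAAT box and 4 GC boxes, of which the most distant shared bases with the CCAAT box. Neither motif was present in the Rptor window, where 37.6% of bases were G or C. Of all 32841 promoter windows of this length, 33.9% held a CCAAT box and 32.7% a GC box, and the median share of G and C was 52.4%. Windows were given for 9 members, not for Deptor. Of their 14 windows, 7 held a CCAAT box and 8 a GC box, but the 2 windows of Telo2 overlap and so do the 2 of Mapkap1, and the same boxes count in both. A TATA box (TATAAA) was in 1 of the 14, against 12.4% of all windows, and an E-box with the letters CACGTG in 0, against 6.02%.

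Libraries held between 19130209 and 23029089 counts, and a floor of 3 counts corresponded to 0.127 to 0.161 CPM, so the members lay well above the limit of detection (counting error only). The controls differed more from each other than the INK128 libraries did, with 13.8% of tested genes over 2-fold apart against 1.004%, and Pearson correlations of log2 CPM of 0.81 and 0.98. Granulosa cell markers were present in all 4 libraries (summed CPM 3119 to 7713), whereas the oocyte markers summed to 28.4 CPM in control replicate 3 and to 853 to 1177 CPM in the other libraries. Theca and luteal markers also set the controls apart, summing to 10833 CPM in control replicate 3 but to 777 CPM in the other control, beside 3783 and 4993 CPM in the INK128 libraries. Control replicate 1 held 2213 CPM of Sertoli cell markers against 77.5 to 295 CPM elsewhere, and 1021 counts of 4 Y-linked genes against 0 to 2. The donor gonads are described as female in the methods, and the recipients were female, so these counts go against the described design. Kidney markers summed to 167 and 279 CPM with INK128 and to 1149 and 1978 CPM in the controls. Of the 20 listed genes, 18 lay below both controls and 1 (Nphs1) above both. Among all tested genes 34% lay below and 34.5% above both controls. Immune cell markers summed to 203 and 201 CPM against 338 and 542 CPM, and endothelial markers to 393 and 425 CPM against 479 and 647 CPM, where of 6 genes 1 (Kdr) lay below both controls and 1 (Emcn) above both. Smooth muscle markers went the other way, at 5067 and 5119 CPM against 712 and 1518 CPM. In no list was a gene at 0 in all 4 libraries. The part of these differences in the results below was not tested, and in bulk tissue fewer cells of a type and less RNA per cell cannot be told apart.

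Both INK128 libraries lay below both controls for 5 of the 10 members (Mtor, Deptor, Rptor, Rictor and Mapkap1) and above both for 3 (Telo2, Akt1s1 and Prr5), while Mlst8 and Prr5l overlapped. Among all tested genes 34% were below and 34.5% above in this way. A gene was called by the edgeR quasi-likelihood test when its adjusted p was below 0.05 and it differed by more than 1.5-fold. By this rule 0 of the 9 tested members were called lower and 0 higher, against 3.19% and 3.18% of all tested genes. The smallest adjusted p over all tested genes was 0.0464, so edgeR calls in these libraries stood close to the threshold. At an unadjusted p below 0.05, 3 members were lower (Mtor, Deptor and Rictor) and 1 was higher (Prr5), where 18.7% and 17.7% of all genes were. DESeq2, the test used in the study, called Mtor, Deptor and Rictor lower and 0 members higher, against 15.1% and 13.6% of all genes. Limma voom called 0. At an edgeR adjusted p below 0.1 with the same fold limit, the same 3 members passed as lower, against 13.5% of all genes. The median log2 fold change of the 9 tested members was -0.29, beside -0.03 for all tested genes.

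**Figure D1:**
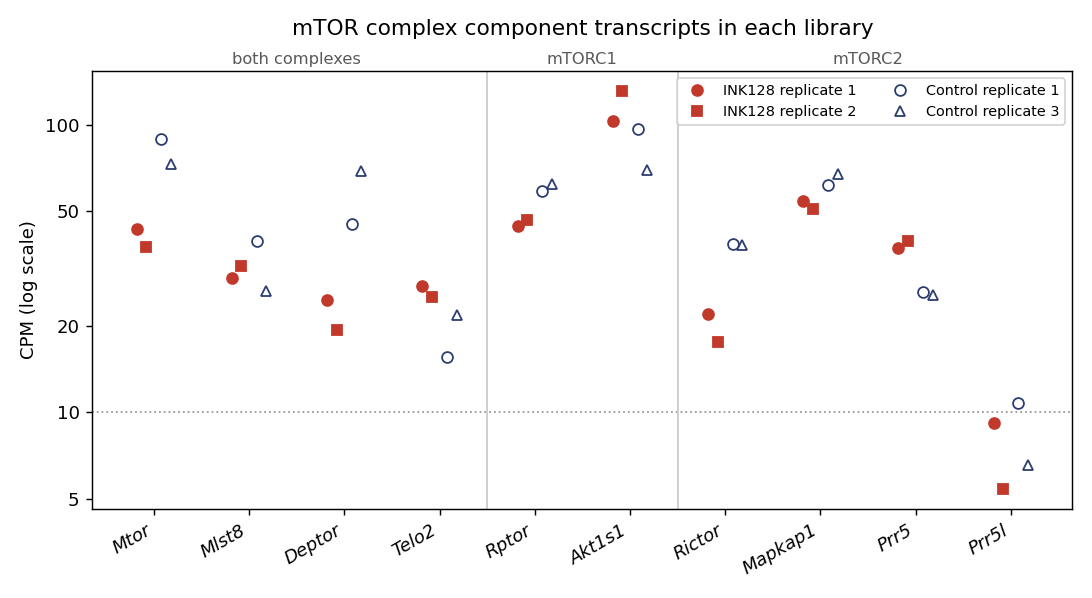
CPM of the 10 mTOR complex components in each library, on a log scale. Filled red symbols are the INK128 replicates, open blue symbols the controls, and the dotted line marks 10 CPM. Mtor, Deptor, Rptor, Rictor and Mapkap1 have both red symbols below both blue ones, and Telo2, Akt1s1 and Prr5 have them above.

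Among the components of both complexes, Mtor, Deptor and Telo2 showed no overlap between groups, and Mlst8 overlapped. Among all tested genes 34% lay below and 34.5% above both controls. Mtor (chromosome 4, 148448611 to 148557683 on mm10, exons of 10109 bases merged over transcripts) was at 43.3 and 37.5 CPM with INK128 and at 89.4 and 73.0 CPM in control replicates 1 and 3. Both INK128 values were well below the lower control. The log2 fold change was -1.01 (SE 0.20, unadjusted p = 0.00496, adjusted p = 0.0526, edgeR), which missed the threshold.

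Deptor, the inhibitory subunit of both complexes, had the largest fold change among the members. It lies on chromosome 15 (55112317 to 55259271, exons of 8874 bases) and was at 24.6 and 19.3 CPM with INK128 and at 45.0 and 69.0 CPM in controls. The controls were spread more widely than the INK128 libraries, yet both stood above them. Its log2 fold change was -1.38 (SE 0.30, adjusted p = 0.0569, edgeR). The antisense-strand transcript Gm9920 shares 303 of its exon bases (3.41%), and without a stated strand setting reads there cannot be assigned.

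Mlst8, the WD40-repeat subunit on the kinase domain, did not separate the groups. It was at 29.3 and 32.2 CPM with INK128 and at 39.4 and 26.4 CPM in controls, so the INK128 values lay between the controls, and the log2 fold change was -0.10 (SE 0.27, adjusted p = 0.802, edgeR). Bricd5, on the other strand, shares 997 bases (22.5%) of the Mlst8 exons on chromosome 17 (24473551 to 24479078), and its level is therefore uncertain.

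Telo2, the assembly factor, lay on the opposite side from the kinase. It was at 27.5 and 25.2 CPM with INK128 and at 15.5 and 21.7 CPM in controls, with both INK128 values above both controls. The log2 fold change of 0.50 (SE 0.27) did not pass the test (adjusted p = 0.239, edgeR). Telo2 is on chromosome 17 (25099570 to 25115967).

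Neither mTORC1 component passed the test. Rptor, the substrate-recruiting scaffold on chromosome 11 (119602905 to 119899576), was at 44.4 and 46.5 CPM with INK128 and at 58.7 and 62.3 CPM in controls. Replicates were close within each group and the groups did not overlap, with a log2 fold change of -0.41 (SE 0.17, adjusted p = 0.152, edgeR). Akt1s1, which encodes the mTORC1 inhibitor and substrate PRAS40 (chromosome 7, 44848991 to 44855421), was at 103 and 131 CPM with INK128 and at 96.7 and 69.6 CPM in controls. The lower INK128 value exceeded the higher control by a small margin, and the log2 fold change was 0.49 (SE 0.25, adjusted p = 0.216, edgeR).

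None of the mTORC2 components passed the edgeR test. Both scaffolds lay below both controls and Prr5 above them, as did 34% and 34.5% of all tested genes. Rictor, on chromosome 15 (6708379 to 6800401), was at 22.1 and 17.5 CPM with INK128 and at 38.4 and 38.2 CPM in controls. The controls were nearly equal and both INK128 libraries were far below them, with a log2 fold change of -0.95 (SE 0.22, unadjusted p = 0.00888, adjusted p = 0.0614, edgeR). Mapkap1, which encodes the scaffold mSin1 (chromosome 2, 34406771 to 34624950), differed less.

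Mapkap1 was at 54.2 and 51.1 CPM with INK128 and at 61.4 and 67.4 CPM in controls, without overlap, and its log2 fold change was -0.29 (SE 0.17, adjusted p = 0.270, edgeR). Neither of the paralogous Rictor-binding genes passed the test. Prr5 on chromosome 15 (84669620 to 84703673) was at 37.3 and 39.6 CPM with INK128 and at 26.1 and 25.6 CPM in controls, a log2 fold change of 0.57 (SE 0.19, unadjusted p = 0.0317, adjusted p = 0.108, edgeR). Prr5l on chromosome 2 (101714285 to 101883027) was at 9.18 and 5.43 CPM against 10.8 and 6.58 CPM, with wide replicate spread in both groups. Its log2 fold change was -0.20 (SE 0.46, adjusted p = 0.779, edgeR, in the fit that included weakly expressed genes).

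Because the controls differed in their cell type markers, each comparison was repeated without either control. Without control replicate 1 (the library with Y-linked and Sertoli cell counts), the log2 fold changes were -0.85 for Mtor (adjusted p = 0.00318, edgeR), -1.66 for Deptor (adjusted p = 0.000112) and -0.95 for Rictor (adjusted p = 0.00675), and all 3 were called lower. Akt1s1 (0.75, adjusted p = 0.0115) and Prr5 (0.59, adjusted p = 0.0347) were then called higher, whereas Telo2 came to 0.28 (adjusted p = 0.348). Without control replicate 3 (the library nearly without oocyte markers), Mtor (-1.15, adjusted p = 0.000497), Deptor (-1.04, adjusted p = 0.00271) and Rictor (-0.96, adjusted p = 0.00559) were again called lower, and Telo2 (0.76, adjusted p = 0.0245) higher, whereas Akt1s1 came to 0.28 (adjusted p = 0.294). Akt1s1 was also lower, at 0.30 (adjusted p = 0.721), without INK128 replicate 2. The lone control is assumed in these fits to vary like the INK128 replicates, and calls over all genes rose as well, to 2723 lower and 2664 higher without control replicate 1 and to 2518 and 2493 without control replicate 3. With either INK128 replicate left out, no gene was called. The members' direction was the same without each library in turn except for Mlst8 and Prr5l.

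Levels were compared between members only per length, as CPM per kb of merged exon. Exons were those of GENCODE, which may differ from the exons over which reads were counted, and this bears on every value per length and every length offset given here. With INK128 the order of the means was Akt1s1 (38.1), Prr5 (20.03), Mapkap1 (13.0), Mlst8 (6.93), Mtor (3.99), Rptor (3.37), Telo2 (3.29), Deptor (2.47), Prr5l (1.47) and Rictor (1.17). The ranges of Rptor and Telo2, and of Prr5l and Rictor, overlapped, and the other neighbours did not. In controls Akt1s1 was again highest (27.1), followed by Mapkap1 (15.9), Prr5 (13.5), Mtor (8.03), Mlst8 (7.43), Deptor (6.42), Rptor (4.49), Telo2 (2.33), Rictor (2.26) and Prr5l (1.75). There Mtor overlapped Mlst8, Mlst8 overlapped Deptor, and Telo2 overlapped Rictor. Per kb of the longest coding transcript, Akt1s1 was still highest in both groups, at 64.6 with INK128 and 45.9 in controls, and Prr5l lowest, at 1.70 and 2.02, although its range overlapped that of Rictor with INK128. On that scale the INK128 order of 3 members was reversed, with Telo2 at 7.46, Rptor at 6.89 and Mtor at 4.71.

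Ratios between subunits within a library do not depend on library size, and 6 pairs were compared on the log2 scale of CPM per kb of exon. All 6 differed without overlap between groups. With 2 libraries against 2 the exact permutation test (two-sided) gives p = 0.3333 for each, the smallest p this design allows. After adjustment over the 6 pairs the value is the same. The pairs were chosen with earlier results of these data known and share members, so they are not 6 separate results. Among single tested genes, 34% lay below and 34.5% above both controls. How often other gene pairs separate the groups was not examined. The ratio of the mTORC1 scaffold to the mTORC2 scaffold, Rptor to Rictor, was 1.34 and 1.74 with INK128 and 0.94 and 1.03 in controls, a difference of 0.55, which was 0.35 without INK128 replicate 2. Mlst8 to Mtor was 0.62 and 0.97 against 0.01 and -0.28, a difference of 0.93. Telo2 to Mtor was -0.32 and -0.24 against -2.19 and -1.41, which at 1.52 was the widest of the 6.

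The remaining pairs were also higher with INK128, a direction that depends on which gene of a pair is named first. Akt1s1 to Rptor was 3.35 and 3.62 against 2.85 and 2.29, a difference of 0.91. Mapkap1 to Rictor was 3.36 and 3.60 against 2.74 and 2.88, a difference of 0.67. Prr5 to Prr5l was 3.39 and 4.24 against 2.65 and 3.33, where the lower INK128 value and the higher control were almost equal. Its difference of 0.83 was 0.40 without INK128 replicate 2 and 0.48 without control replicate 1.

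**Figure D2:**
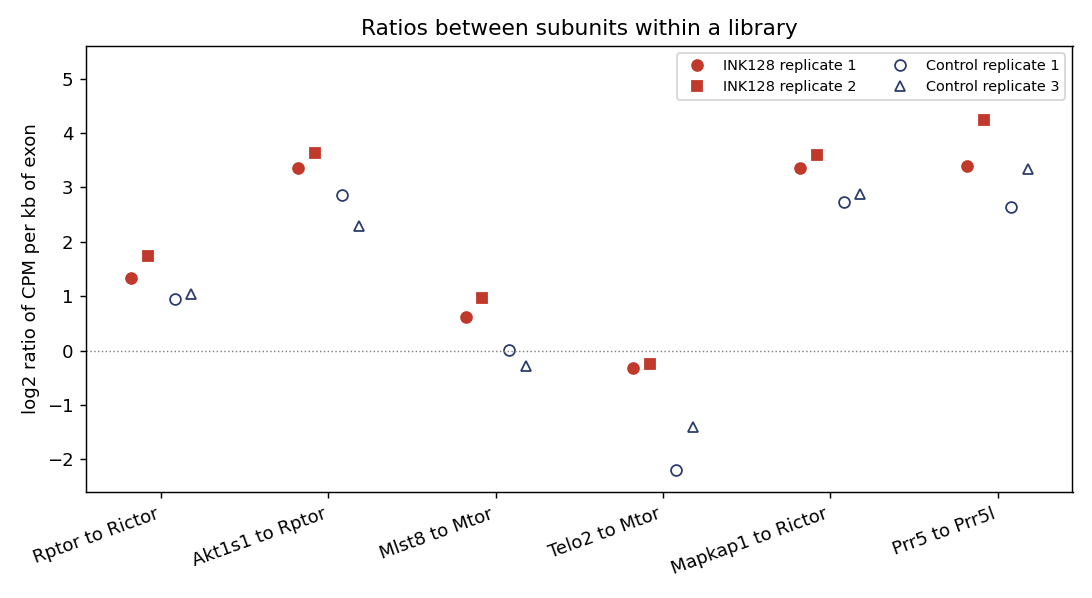
Log2 ratio of CPM per kb of exon between 2 subunits in the same library, for 6 pairs. Filled red symbols are INK128 replicates and open blue symbols controls. Both red symbols lie above both blue ones in every pair, with the widest difference for Telo2 to Mtor (1.52).

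Fold changes varied with transcript length over all genes, and most members followed the same order. Tested genes were divided by merged exon length into 5 bins of 2340 genes, and the median log2 fold change was 0.59 in the bin with the shortest exons (57 to 2385 bases), 0.24, -0.03 and -0.27 in the next, and -0.54 in the longest (7773 to 123179 bases). Prr5 (1917 bases) was in the shortest bin, Akt1s1 (3072 bases) in the second, and Mlst8 (4435 bases) and Mapkap1 (4059 bases) in the third. Mtor, Deptor, Telo2 (8006 bases), Rptor (13471 bases) and Rictor (16930 bases) were in the longest. Across genes, which are not independent replicates and share the 4 libraries, Spearman's rho of log2 fold change with exon length was -0.46 over the 11700 genes with a length and -0.73 over the 9 tested members. Telo2 lay above the median of its length bin, with a log2 fold change of 0.50 beside -0.54. In that bin 80.8% of genes had a fold change below 0, so Telo2 was not alone above it. Its place in the bin rests on merged exons, and its longest coding transcript is 3530 bases.

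**Figure D3:**
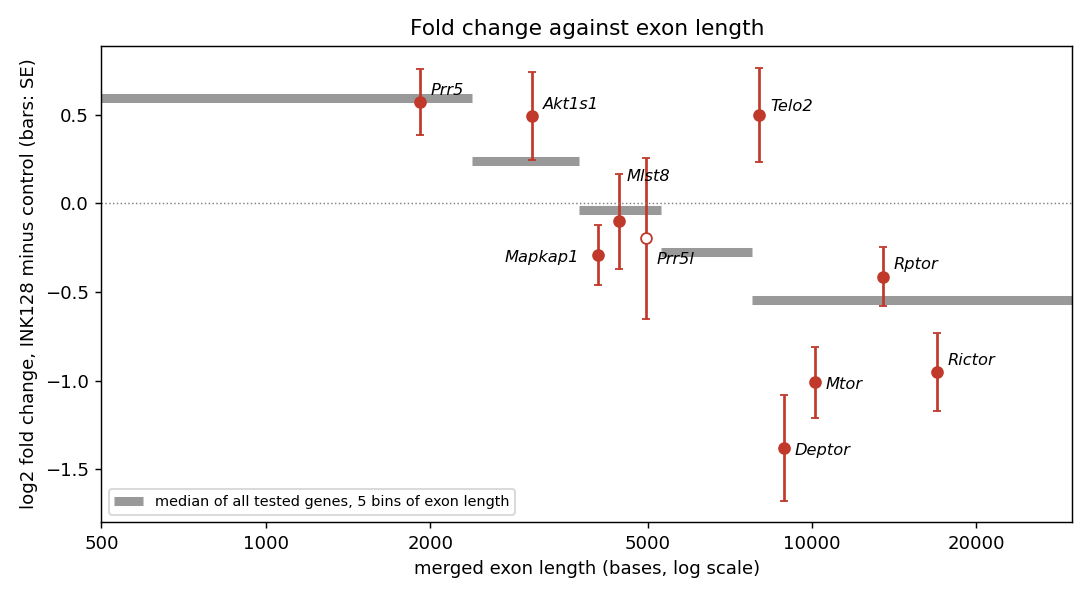
Log2 fold change (INK128 minus control) of each member against its merged exon length, with SE bars. The open symbol is Prr5l, from the fit that included weakly expressed genes. Grey bars are medians of all tested genes in 5 bins of exon length, with the outer bins cut at the edges of the plot. Prr5 and Akt1s1 lie at short lengths and above 0, and Mtor, Deptor, Rptor and Rictor at long lengths and below 0.

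When an offset for exon length was fitted in each library, Spearman's rho over all genes became 0.004 and Mtor, Deptor, Rptor, Rictor, Akt1s1 and Prr5 drew closer to 0. The log2 fold change of Mtor was then -0.55 (adjusted p = 0.190, edgeR) and that of Rictor -0.28 (adjusted p = 0.459). Deptor kept the lowest value at -0.97 (adjusted p = 0.121). Rptor changed sign to 0.18 (adjusted p = 0.530), Prr5 came to 0.03 (adjusted p = 0.927), and Telo2 moved away from 0 to 0.85 (adjusted p = 0.130). No gene in the table was called with these offsets, so the absence of calls says nothing particular about the members.

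Merged exons can be much longer than any 1 transcript of a gene, as in Telo2, whose longest coding transcript is 3530 bases. Offsets by the longest coding transcript, an alternative chosen after the data were seen, gave -0.35 for Mtor (adjusted p = 0.428, edgeR), -0.69 for Deptor (adjusted p = 0.195), -0.26 for Rictor, 0.14 for Rptor and 0.58 for Telo2. The median of the 9 tested members was -0.12 with exon length offsets and 0.04 with coding transcript offsets. Ratios moved as well. Akt1s1 to Rptor differed by 0.19 with exon length offsets, Mapkap1 to Rictor by 0.01 and Prr5 to Prr5l by 0.39. Mlst8 to Mtor came down from 0.93 to 0.52 with exon length offsets, and Telo2 to Mtor from 1.52 to 0.99 with coding transcript offsets.

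**Figure D4:**
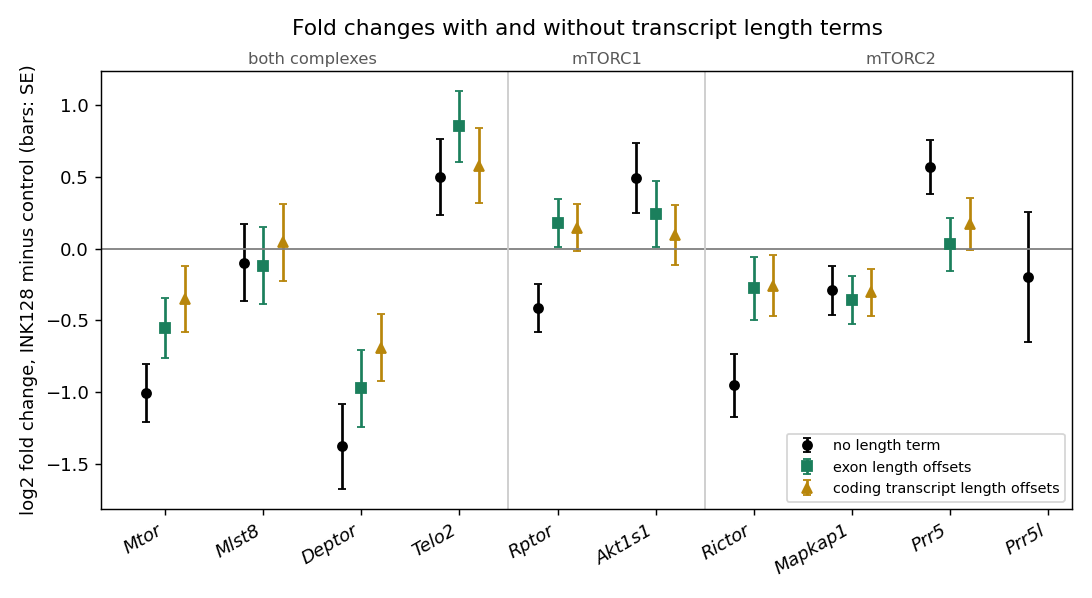
Log2 fold change (INK128 minus control) with SE bars for each member, without a length term (black circles), with exon length offsets (green squares) and with coding transcript length offsets (gold triangles). Mtor, Deptor, Rictor and Prr5 lie closer to 0 with both offsets, Rptor crosses 0, and Telo2 stays above 0. Prr5l is shown without a length term only.

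The other genes of the pathway were described by 7 lists of 71 genes, of which 67 were tested. The edgeR test called 2 lower and 3 higher, where 3.19% and 3.18% of all tested genes were called, and 15 (22.4%) were lower and 17 (25.4%) higher at an unadjusted p below 0.05, beside 18.7% and 17.7% of all tested genes. DESeq2 called 13 lower (19.4%) and 11 higher (16.4%), beside 15.1% and 13.6% of all tested genes. Nothing particular to these lists is read from the counts. The partners of Telo2 in chaperone-assisted assembly (Tti1, Tti2 and the R2TP proteins) had a median log2 fold change of 0.42, with 0 of 6 called by edgeR in either direction. Pih1d1, an R2TP subunit, was at 53.2 and 62.3 CPM with INK128 and 28.9 and 28.9 CPM in controls (log2 fold change 0.998, adjusted p = 0.0507, edgeR). Tti1, which binds Telo2 directly, was at 22.9 and 27.7 CPM against 36.3 and 32.4 CPM (-0.44, adjusted p = 0.209). DESeq2 called 1 of the 6 higher.

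The other genes of the mTOR kinase family, whose products are also clients of Telo2, were below both controls in all 5 cases (34% of all tested genes). Their median log2 fold change was -0.97. Their median exon length was 20859 bases and the median with exon length offsets was -0.23. Atm, the DNA double-strand break kinase, was the only one of the 5 called lower by edgeR, where 3.19% of all tested genes were. It was at 2.79 and 3.77 CPM with INK128 and at 15.6 and 26.0 CPM in controls (log2 fold change -2.66, adjusted p = 0.0464), and at -2.18 with exon length offsets. DESeq2 called 4 of the 5 lower (15.1% of all tested genes). The count called lower was 0 with limma voom, a mean CPM above 1, and exon length, coding transcript or GC content offsets. It was 1 with relative log expression or upper quartile factors and 2 with library totals. With at least 1 count, or CPM above 10 in all 4 libraries, it was 3.

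Upstream of mTORC1, the TSC complex restrains the GTPase Rheb, which activates the kinase on lysosomes. None of the 5 genes of this list was called by edgeR (unadjusted p below 0.05 for 2 higher and 1 lower), and DESeq2 called 1 in each direction. Over all tested genes, 17.7% were higher and 18.7% lower at that p. DESeq2 called 13.6% higher and 15.1% lower, and edgeR 3.18% and 3.19%. Rheb was at 129 and 140 CPM with INK128 and at 90.1 and 85.5 CPM in controls (0.62, adjusted p = 0.0749, edgeR), and Tsc1 at 22.1 and 21.3 CPM against 34.4 and 46.8 CPM (-0.90, adjusted p = 0.0755). The groups did not overlap for either gene, and among all tested genes 34.5% lay above and 34% below both controls.

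The Rag GTPases and the Ragulator, which hold mTORC1 at the lysosome when amino acids are present, had 2 genes called higher and 1 lower by edgeR among 9 tested, where 3.18% and 3.19% of all tested genes were. The Ragulator subunits Lamtor4 and Lamtor2 were called higher, also with upper quartile factors. They were not called with relative log expression factors, library totals or limma voom. Lamtor4 was at 67.6 and 74.3 CPM with INK128 and 26.9 and 34.8 CPM in controls (1.20, adjusted p = 0.0489, edgeR), and Lamtor2 at 74.8 and 73.0 CPM against 37.5 and 40.0 CPM (0.93, adjusted p = 0.0496). Their exons are short, at 1302 and 1218 bases, and the values with exon length offsets were 0.48 and 0.21.

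Rragd, a Rag GTPase, fell from 35.4 and 31.5 CPM in controls to 7.998 and 5.61 CPM with INK128 (log2 fold change -2.30, adjusted p = 0.0464, edgeR), and its value with exon length offsets was -2.22. DESeq2 called 3 genes of this list higher and 1 lower, beside 13.6% and 15.1% of all tested genes. Of the 16 tested genes for the GATOR and KICSTOR complexes and the nutrient sensors, which control the Rag GTPases, 0 were called by edgeR (unadjusted p below 0.05 for 4 in each direction), and DESeq2 called 2 higher and 4 lower, beside 17.7% higher and 18.7% lower of all tested genes at that p, and 13.6% and 15.1% by DESeq2. EdgeR called 3.18% of all tested genes higher and 3.19% lower. The median log2 fold change of these 16 genes was -0.38. Kptn, a KICSTOR subunit, was at 20.5 and 22.4 CPM with INK128 and 8.59 and 13.5 CPM in controls (0.96, adjusted p = 0.113, edgeR). Sesn2, a leucine sensor, was at 15.2 and 19.5 CPM against 87.8 and 26.8 CPM (-1.72, adjusted p = 0.121), where control replicate 1 was far above the other libraries.

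Downstream, transcripts of 17 mTORC1 substrates and effectors had a median log2 fold change of 0.05, with 1 called higher and 0 lower by edgeR and 4 higher and 1 lower by DESeq2, where edgeR called 3.18% and 3.19% and DESeq2 13.6% and 15.1% of all tested genes. The called gene was Rps6, a ribosomal protein of the small subunit and the target of the S6 kinases. Rps6 was at 1532 and 1673 CPM with INK128 and at 791 and 686 CPM in controls (1.12, adjusted p = 0.0486, edgeR), and at 0.48 with exon length offsets. Cytosolic ribosomal protein genes as a whole took 9.42% and 9.63% of counts with INK128 and 3.92% and 3.66% in controls.

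Among the 9 tested mTORC2 substrates the median log2 fold change was -0.47, with 0 called in either direction by edgeR (3 lower at an unadjusted p below 0.05) and 2 called lower by DESeq2. Over all tested genes these lower shares were 18.7% and 15.1%, and edgeR called 3.18% higher and 3.19% lower. Akt1 was close between groups, at 253 and 239 CPM with INK128 and 232 and 228 CPM in controls (0.10, adjusted p = 0.695, edgeR). Sgk1, a kinase related to Akt, was at 37.9 and 35.8 CPM against 66.1 and 279 CPM (-2.23, adjusted p = 0.102). The controls differed widely from each other, with control replicate 3 far above the other libraries.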

How the data were processed

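RNA-seq of 4 rOvary libraries was analysed. The study's methods name Trimmomatic for trimming, Hisat2 for alignment to mm10 and featureCounts for counting over RefGene annotation. What the authors deposited is a table of raw counts, one column a library, without normalization or pooling. Strand setting and versions are not given in the sources used here. The members, gene lists and tests were chosen with earlier results of these data known. Library scaling for CPM was by TMM, with edgeR version 4.0.16 under R version 4.3.3. The main test was the quasi-likelihood F-test of edgeR. Its p-values were adjusted by the Benjamini-Hochberg procedure over the 11758 genes that averaged more than 10 CPM. Calls needed a difference of more than 1.5-fold and an adjusted p under 0.05. The study had applied these limits with DESeq2, to genes above 10 CPM, so edgeR here replaces its test. DESeq2 1.42.0, limma voom (3.58.1), other normalizations and filters, offsets for exon length, coding transcript length or GC content (lowess in each library), and leaving out each library were alternatives. The tests were tested on simulated counts with planted fold changes. Positions and exon lengths came from GENCODE release M21 on mm10, which matched 53447 of 54021 symbols. These exons may not be those the authors counted over, since the methods name RefGene. Genes named in the pathway lists were those called (at most 3 per direction), otherwise the highest and lowest fold change. Ratios used CPM without a pseudocount, and log2 CPM for replicate correlations used 0.5.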

Additional observations from a re-analysis of the deposited data

How the results depend on the processing

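No paired analysis was run because nothing in the sources used here states that libraries of the groups were paired. Every member was detected in every library, and 2 libraries a group limit the precision. The count of members called lower was 0 in edgeR, 3 with DESeq2, with a filter of CPM above 10 in all 4 libraries and at an adjusted p below 0.1, 2 with at least 1 count, 1 with library totals, and 0 to 3 without each library in turn. Members called higher were 0, and 0 to 2 without each library. The median log2 fold change of members (-0.29) was -0.23 with upper quartile factors, -0.41 with library totals (median of all genes -0.15), -0.22 at a mean CPM above 1, -0.23 with at least 1 count, -0.12 with exon length offsets, 0.044 with coding transcript offsets, and -0.36 to -0.26 without each library. Calls in the other pathway lists (2 lower and 3 higher) were 13 and 11 with DESeq2, 6 and 5 at CPM above 10 in all 4 libraries, 9 and 5 with at least 1 count, and 11 and 11 at an adjusted p below 0.1. They were 0 and 0 with voom, a mean CPM above 1, exon length, coding transcript or GC offsets, and 0 to 19 lower and 0 to 17 higher without each library. Higher calls were 1 with relative log expression factors and 0 with library totals. Over all genes, calls were 1772 lower and 1595 higher with DESeq2, 717 and 803 at CPM above 10 in all 4 libraries, 1953 and 1152 with at least 1 count, 580 and 290 with library totals, 396 and 567 with upper quartile factors, 1591 and 1540 at an adjusted p below 0.1, and 0 with the offsets, voom or a mean CPM above 1.

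Signs changed for 3 members. Mlst8 was 0.044 with coding transcript offsets and between -0.36 and 0.22 without each library. Rptor was 0.18 with exon length and 0.14 with coding transcript offsets. Prr5l was 0.0029 with coding transcript offsets and between -0.64 and 0.20 without each library. Differences in ratios moved with exon length and coding transcript offsets to 0.19 and 0.085 for Akt1s1 to Rptor, 0.52 and 0.46 for Mlst8 to Mtor, and 0.0091 and 0.034 for Mapkap1 to Rictor, and with coding transcript offsets to 0.99 for Telo2 to Mtor. Prr5 to Prr5l (0.83) was 0.39 with exon length and 0.29 with coding transcript offsets, and 0.40 to 1.25 without each library, and Rptor to Rictor (0.55) was 0.35 to 0.75. With GC content offsets the log2 fold change was 0.16 for Akt1s1 (0.49 without), 0.22 for Prr5 (0.57), -0.63 for Rptor (-0.41) and -0.25 for Mlst8 (-0.10). Why these settings moved the values was not tested.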
